A study of Mus musculus with 6 samples.

Results

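The 9 Toll-like receptor (TLR) genes Tlr1, Tlr2, Tlr3, Tlr4, Tlr6, Tlr7, Tlr8, Tlr9 and Tlr13 and the co-receptor gene Cd14 were followed in RNA sequencing libraries of mouse bone marrow-derived macrophages (BMDMs). They were chosen by symbol, and all 10 were found among the 28822 gene identifiers of the deposited count table. Cultures treated with BW723C86, an agonist of the serotonin receptor 5-HT2B, gave 3 libraries, and cultures given the vehicle DMSO gave 3. In both groups the macrophages sat above HT22 cells in a Transwell. HT22 is a neuronal line from mouse hippocampus, deprived here of oxygen and glucose for 2 h. BMDMs are named in the title of the series, while its design text leaves BV2 microglia as another choice for the upper chamber, and the labels read BMDM with HT22. The sources used here state no dose, treatment time, strain, sex or age, and do not say whether replicates were separate cultures, so p-values reflect the spread among these libraries, and that spread may be technical.

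TLRs are membrane receptors that bind conserved microbial molecules and products of damaged cells. TLR2, which pairs with TLR1 or TLR6 to bind bacterial lipopeptides, and TLR4, which binds lipopolysaccharide (LPS) with its partner MD-2, sit at the cell surface, where CD14 passes ligand to them. TLR3, TLR7, TLR8, TLR9 and TLR13 sit in endosomes and bind nucleic acids after the chaperone UNC93B1 has brought them there. Most TLRs signal through the adaptor MyD88 to NF-kB, TLR3 signals through TRIF, and TLR4 uses both.

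Total estimated counts ran from 59971346 to 72562020 in BW723C86 libraries and from 58841307 to 75931615 in DMSO libraries. The BW723C86 libraries differed more among themselves than the DMSO libraries, and which of them stood apart depended on the measure. By counts, replicate 2 differed from replicates 1 and 3 by a chi-square of 35.5 and 24.4 per degree of freedom, while replicates 1 and 3 gave 11.1 and the DMSO pairs 9.83 to 10.4. On the second principal component, which held 12.3% of the variance, BW723C86 replicate 1 lay at 42.5, apart from replicates 2 and 3 at -11.6 and -31.4, and the DMSO libraries lay between -2.63 and 5.59. Leaving out BW723C86 replicate 1 changed no member's call. Most macrophage markers were abundant in both groups. Csf1r, the receptor for the macrophage growth factor CSF1, was at 1063 ± 43.1 CPM with BW723C86 and 738 ± 2.45 CPM with DMSO (SD, n = 3 each). Aif1 was scarcer, at 8.61 ± 0.602 CPM with BW723C86 and 7.28 ± 0.947 CPM with DMSO. So was Cd163, at 1.62 ± 0.133 CPM with BW723C86 and 2.16 ± 0.232 CPM with DMSO. CPM are counts scaled to library size, with TMM correction for composition. Of 10 macrophage markers 4 rose, 3 fell and 3 did not pass, beside 21.3% of all tested genes higher and 20.7% lower. Adgre1 fell to 390 ± 23.4 CPM with BW723C86, against 689 ± 18.1 CPM with DMSO, and Itgam to 976 ± 39.5 CPM, against 2088 ± 25.9 CPM. The 10 markers summed to 32719 to 33928 CPM with BW723C86 and 37242 to 38092 CPM with DMSO, mostly Lyz2. Of 10 neuronal markers looked for, 7 were in the table, Map2 and Nefl had no count in any library, and the list summed to 19.1 to 20.6 CPM with BW723C86 and 7.06 to 8.46 CPM with DMSO, nearly all of it Syn1. The 2 neuronal markers that could be tested, Syn1 and Nes, both rose.

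With BW723C86, Tlr9 rose 2.71-fold, while Tlr2, Tlr4, Tlr8, Cd14, Tlr1 and Tlr7 fell. Tlr2 fell most, to 173 ± 5.69 CPM with BW723C86 against 448 ± 6.23 CPM with DMSO. Tlr3, Tlr6 and Tlr13 did not pass the test. In all, 1 member was higher (10 members tested), against a background of 21.3% of the 15567 genes tested, and 6 were lower, against a background of 20.7% (edgeR's quasi-likelihood test, Benjamini-Hochberg adjusted p below 0.05 over all tested genes). Either way, 42.0% of tested genes passed. The BW723C86 and DMSO libraries did not overlap in CPM for the same 7 members, where 26.3% of tested genes were wholly higher, 26.0% wholly lower and 52.3% either of these. Tested against a fold of 1.2, an alternative chosen after seeing the data, 1 member was higher and 4 were lower, where 10.3% of tested genes were higher and 10.3% lower. The median log2 fold change, BW723C86 over DMSO, was -0.42 over the 10 members and 0.00 over all tested genes. Tlr9 was the 1 member at least 2-fold higher and Tlr2 the 1 at least 2-fold lower, where 4.41% and 4.05% of tested genes were. RNA was measured in bulk, so fewer cells of a type and less RNA per cell cannot be told apart.

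**Figure D1:**
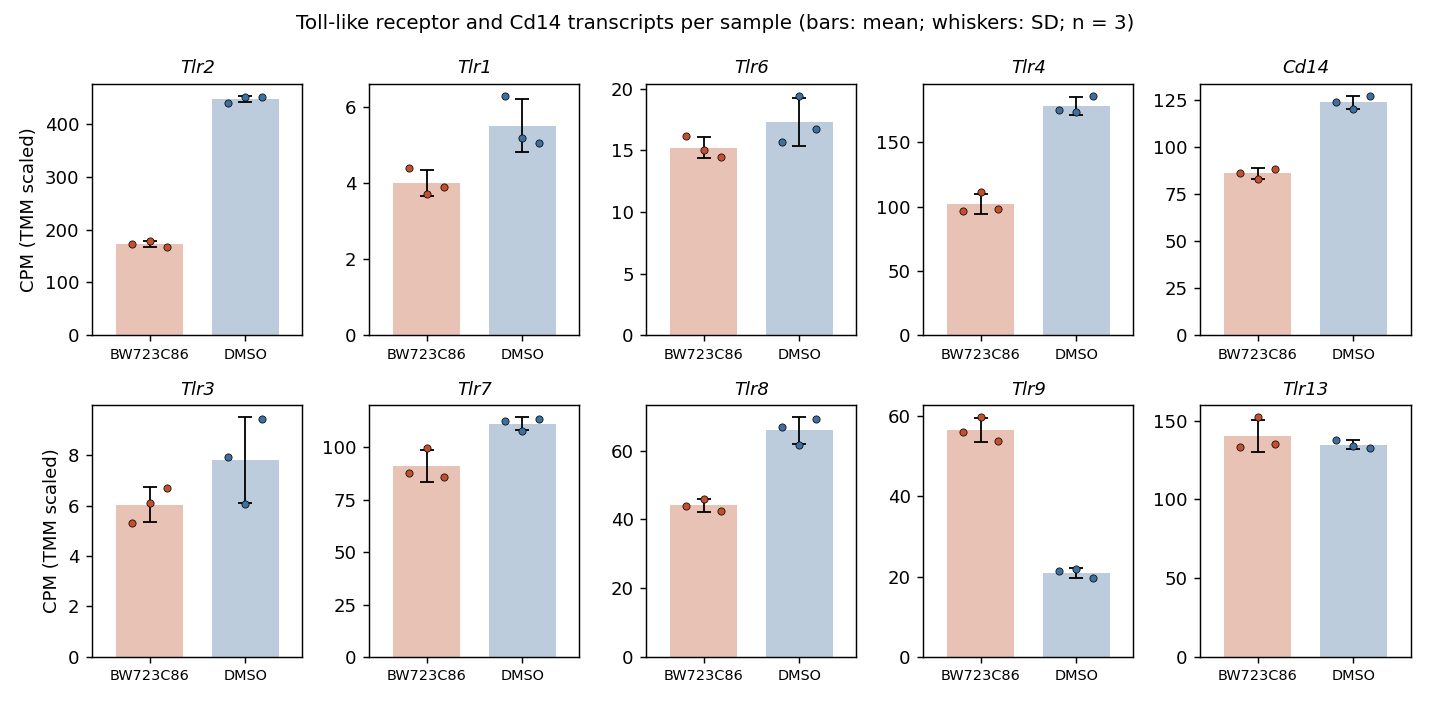
Transcript level of each member in CPM (vertical axes start at 0, each gene with its own scale); bars are group means, whiskers SD and points the 3 libraries of each group, BW723C86 left and DMSO right. The BW723C86 points lie wholly below the DMSO points for Tlr2, Tlr1, Tlr4, Cd14, Tlr7 and Tlr8, wholly above them for Tlr9, and overlap them for Tlr6, Tlr3 and Tlr13.

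Promoter sequences, taken from RefSeq (build GRCm38.p6, 250 bases before to 50 bases after an annotated start, written 5′ to 3′ along the gene), are shown for the member that fell most, the member that rose and a member that did not pass. Windows from RefSeq's table were kept for 7 of the 10 members, without Tlr4, Tlr7 and Cd14. A member without a window here may still have one in RefSeq. Capitals mark matches, on either strand, to GAGGAA, a core bound by the macrophage factor PU.1, to the NF-kB consensus named kappaB, or to the AP-1 letters TGACTCA.
Tlr2 (chr3:83841559-83841858, minus strand): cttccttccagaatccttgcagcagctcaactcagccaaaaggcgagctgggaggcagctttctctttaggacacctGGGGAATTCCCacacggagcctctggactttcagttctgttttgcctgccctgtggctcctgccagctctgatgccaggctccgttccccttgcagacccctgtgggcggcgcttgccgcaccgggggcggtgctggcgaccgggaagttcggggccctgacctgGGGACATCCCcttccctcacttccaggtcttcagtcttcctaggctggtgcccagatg
Tlr9 (chr9:106222348-106222647, plus strand): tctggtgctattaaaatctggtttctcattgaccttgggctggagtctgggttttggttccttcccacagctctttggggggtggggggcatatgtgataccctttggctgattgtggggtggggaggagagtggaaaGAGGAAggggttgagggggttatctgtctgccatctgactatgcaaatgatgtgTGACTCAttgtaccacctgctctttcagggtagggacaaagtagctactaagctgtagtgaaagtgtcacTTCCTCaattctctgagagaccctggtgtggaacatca
Tlr13 (chrX:106143025-106143324, plus strand): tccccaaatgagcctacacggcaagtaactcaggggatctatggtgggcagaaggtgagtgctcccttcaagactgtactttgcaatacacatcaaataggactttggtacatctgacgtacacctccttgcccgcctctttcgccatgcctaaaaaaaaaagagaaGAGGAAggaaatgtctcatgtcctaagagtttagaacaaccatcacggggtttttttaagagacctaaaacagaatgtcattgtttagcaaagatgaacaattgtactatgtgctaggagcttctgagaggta
The Tlr2 window held 3 kappaB matches, of which 2 overlap by all but a base, and no GAGGAA. The Tlr9 window held 2 GAGGAA matches and 1 AP-1 match and no kappaB, and the Tlr13 window 1 GAGGAA match. Windows not printed did not follow this split. That of Tlr3, which did not pass, held 1 kappaB match and no GAGGAA. That of Tlr8, which fell, held 1 GAGGAA match and no kappaB. For Tlr1, which fell, 1 window held 1 GAGGAA match, another held none, and neither held kappaB. The Tlr6 windows held neither motif. Among the 32851 promoter windows in the table, 8.46% held a kappaB match, 28.3% a GAGGAA match and 5.2% an AP-1 match (TGACTCA or its complement). The Tlr2 window was 62% G or C with 11 CpG, whereas the Tlr9 window was 49.7% G or C with 0 CpG, beside a median of 52.7% and 7 CpG over all windows. No binding was measured, so these matches describe the letters only.

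At the cell surface, Tlr2 measured 172, 178 and 167 CPM in BW723C86 replicates 1 to 3 and 441, 451 and 451 CPM in DMSO replicates 1 to 3. Every BW723C86 library was below every DMSO library, and no gap within a group came near the gap between groups. The log2 fold change was -1.37 (SE 0.04, edgeR adjusted p = 6.7e-11), larger in size than that of 93.1% of tested genes. Its promoter is the first of those printed above.

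For the partners of TLR2 the fold changes were smaller. Tlr1, whose product joins TLR2 for triacylated lipopeptides, was low, at 4.38, 3.71 and 3.88 CPM with BW723C86 and 6.29, 5.19 and 5.04 CPM with DMSO. Its groups were separate but close, and the log2 fold change was -0.47 (SE 0.15, edgeR adjusted p = 0.021). That call was lost without BW723C86 replicate 3 (-0.46, adjusted p = 0.052) and without DMSO replicate 1 (-0.36, adjusted p = 0.11).

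Tlr6, whose product joins TLR2 for diacylated lipopeptides, measured 16.2, 15.1 and 14.5 CPM with BW723C86 and 15.7, 19.4 and 16.7 CPM with DMSO. The groups overlapped, and the log2 fold change of -0.18 did not pass (95% interval -0.38 to 0.02, edgeR adjusted p = 0.14). Tlr1 and Tlr6 are close relatives: 10.6% of the 75-base words of Tlr1 transcripts and 9.25% of those of Tlr6 occur in another gene's transcripts, for Tlr6 only in those of Tlr1, so their split of shared reads is uncertain. In CPM per kb of exon, the log2 ratio of Tlr6 to Tlr2 was -3.72, -3.87 and -3.83 with BW723C86 and -5.12, -4.84 and -5.06 with DMSO. The groups did not overlap, and Tlr6 stood 2.29-fold higher relative to Tlr2 with BW723C86. For Tlr1 over Tlr2 the ratio was -5.45, -5.74 and -5.58 with BW723C86 and -6.28, -6.59 and -6.64 with DMSO, a 1.89-fold difference. Each of these comparisons gave p = 0.1 in a two-sided exact permutation test, the smallest that 3 against 3 samples allow, and 0.125 adjusted over the 5 ratios computed.

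Tlr4, the LPS receptor gene, measured 96.8, 111 and 98.4 CPM with BW723C86 and 175, 174 and 186 CPM with DMSO. All BW723C86 values were lower, with replicate 2 the highest of them. The log2 fold change was -0.81 (SE 0.06, edgeR adjusted p = 1.5e-07).

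Cd14, whose product hands LPS to the TLR4 complex, measured 86.3, 83 and 88.6 CPM with BW723C86 and 124, 120 and 127 CPM with DMSO. Its groups were separate, and the log2 fold change was -0.52 (SE 0.05, edgeR adjusted p = 1.3e-06). The log2 ratio of Cd14 to Tlr4, per kb, averaged 1.44 ± 0.151 with BW723C86 and 1.15 ± 0.024 with DMSO (SD, n = 3 each, two-sided exact permutation p = 0.1, adjusted 0.125 over the 5 ratios). BW723C86 replicate 2, at 1.26, lay nearest to the DMSO values of 1.13 to 1.18.

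Among the 5 endosomal receptors, Tlr9 rose, Tlr7 and Tlr8 fell, and Tlr3 and Tlr13 did not pass. Tlr9, the receptor for unmethylated CpG DNA, measured 56, 59.6 and 53.7 CPM with BW723C86 and 21.3, 21.8 and 19.6 CPM with DMSO. The lowest BW723C86 value was above the highest DMSO value by more than the spread within either group. Its log2 fold change was 1.44 (SE 0.07, edgeR adjusted p = 1.7e-09), larger in size than that of 93.7% of tested genes.

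Tlr8, whose product senses RNA breakdown products in human cells, measured 44, 45.8 and 42.3 CPM with BW723C86 and 66.8, 61.6 and 69.1 CPM with DMSO. The groups were separate, at a log2 fold change of -0.58 (SE 0.06, edgeR adjusted p = 4.7e-06). Tlr7, encoding a receptor for single-stranded RNA and a neighbour of Tlr8 on chromosome X, measured 87.9, 99.6 and 85.7 CPM with BW723C86 and 112, 108 and 114 CPM with DMSO.
For Tlr7 the groups were separate, with BW723C86 replicate 2 nearest to the DMSO values. The log2 fold change was -0.29 (SE 0.06, edgeR adjusted p = 0.0013), and -0.38 without BW723C86 replicate 2.

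Tlr13, which in mice binds bacterial ribosomal RNA, measured 133, 152 and 136 CPM with BW723C86 and 138, 134 and 133 CPM with DMSO. Replicate 2 was the highest of all 6 libraries and the groups overlapped. The log2 fold change of 0.06 did not pass (95% interval -0.06 to 0.18, edgeR adjusted p = 0.42), and it was -0.02 without BW723C86 replicate 2. As a fold the interval ran from 0.96 to 1.13, and it rests on the spread among these libraries, which may be technical.

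Tlr3, the double-stranded RNA receptor gene, was low, at 5.32, 6.12 and 6.69 CPM with BW723C86 and 7.91, 6.07 and 9.44 CPM with DMSO. DMSO replicate 2 lay inside the BW723C86 range. The log2 fold change was -0.37 (95% interval, not adjusted for the number of genes, -0.72 to -0.03) and did not pass (edgeR adjusted p = 0.078). It passed without DMSO replicate 2 (-0.53, adjusted p = 0.017) and with counts divided by 4 (-0.38, adjusted p = 0.047). The annotation places 1 gene, Gm45542, on the opposite strand over exons of Tlr3. The sources used here do not say whether counting used strand, so reads from the stretch this pair shares cannot be told apart. Of the 75-base words of Tlr3 transcripts, 4.28% occur in another gene's transcripts, only in those of Gm45542.

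**Figure D2:**
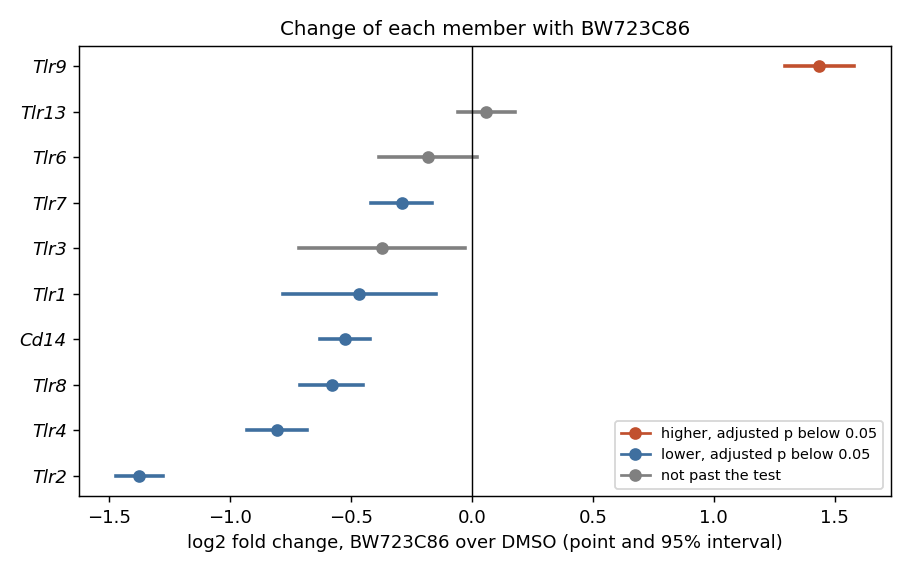
Log2 fold change of each member, BW723C86 over DMSO, as a point with its 95% interval (edgeR, not adjusted for the number of genes), members from highest to lowest. Tlr9 stands alone on the right at 1.44, Tlr13 straddles 0, and Tlr2 lies farthest left at -1.37.

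Levels were compared between genes in CPM per kb of exon. With BW723C86 the order was Tlr2 at 57.3 ± 1.89, Cd14 at 49.6 ± 1.6, Tlr13 at 32.6 ± 2.39, Tlr7 at 22.3 ± 1.83, Tlr4 at 18.4 ± 1.41, Tlr9 at 16.2 ± 0.857 and Tlr8 at 12.3 ± 0.492 CPM per kb (SD, n = 3). Tlr6 at 4.09 ± 0.226, Tlr1 at 1.19 ± 0.103 and Tlr3 at 1.16 ± 0.132 CPM per kb closed it. With DMSO, Tlr2 led at 149 ± 2.07 CPM per kb, ahead of Cd14 at 71.4 ± 2.11, Tlr4 at 32.1 ± 1.23, Tlr13 at 31.3 ± 0.638, Tlr7 at 27.3 ± 0.729 and Tlr8 at 18.4 ± 1.07. Tlr9 at 6 ± 0.339, Tlr6 at 4.64 ± 0.521, Tlr1 at 1.65 ± 0.205 and Tlr3 at 1.5 ± 0.325 CPM per kb followed. Neighbouring ranges overlapped for Tlr1 and Tlr3 in both groups, and for Tlr4 and Tlr13 in the DMSO group. Tlr9 thus stood above Tlr8 in each BW723C86 library and below it in each DMSO library, and Tlr4 stood below Tlr7 in each BW723C86 library and above it in each DMSO library.

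Summed over the 9 TLRs, the level was 162, 175 and 159 CPM per kb in BW723C86 replicates 1 to 3 and 269.7, 270.0 and 275 CPM per kb in DMSO replicates 1 to 3. The pool was thus 0.609-fold as large with BW723C86. The 5 endosomal TLRs made up 50.5%, 51.9% and 50.9% of it with BW723C86 and 31.8%, 30.4% and 31.1% with DMSO, without overlap. Their own summed level overlapped between groups. In CPM, not divided by length, it was 324 to 363 with BW723C86 and 331 to 346 with DMSO. The rise in endosomal share thus came with a smaller pool. Most of the shift in shares lay in Tlr2, which held 34.6% ± 0.768 of the pool with BW723C86 and 54.7% ± 0.67 with DMSO (SD, n = 3 each). Tlr9 held 9.8% ± 0.109 with BW723C86 and 2.21% ± 0.146 with DMSO. Tlr13, whose own level did not pass the test, held 19.7% ± 0.544 with BW723C86 and 11.5% ± 0.327 with DMSO. Tlr4 held nearly the same share, 11.1% ± 0.334 with BW723C86 and 11.8% ± 0.335 with DMSO. The summed TLR level and the endosomal share each gave p = 0.1 in a two-sided exact permutation test, the smallest that 3 against 3 samples allow.

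**Figure D3:**
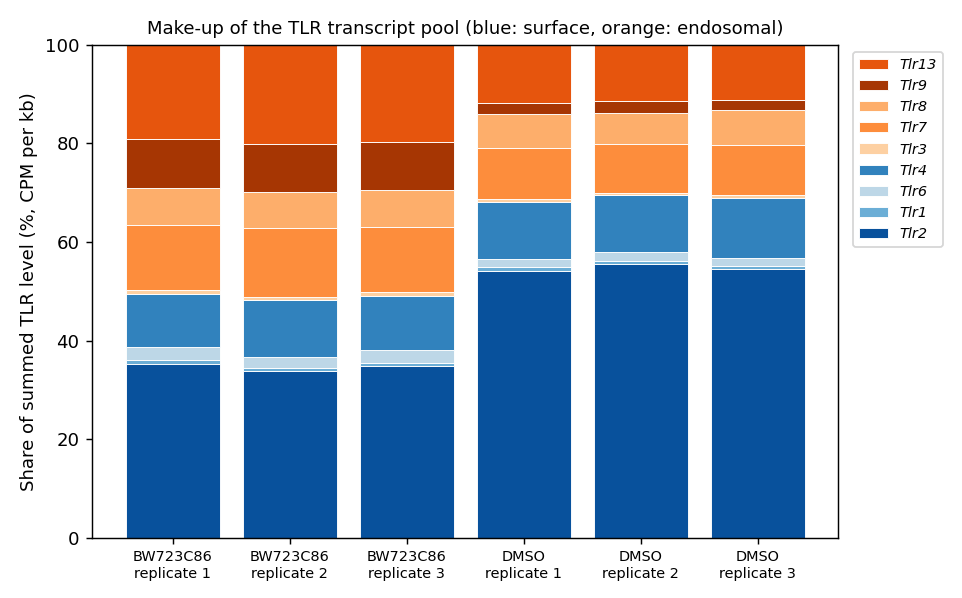
Share of each TLR in the summed TLR level (percent, from CPM per kb of exon) in each library, BW723C86 left and DMSO right, surface receptors in blue and endosomal ones in orange. The 3 BW723C86 libraries place 50.5% to 51.9% in the orange segments and the 3 DMSO libraries 30.4% to 31.8%.

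The 3 other mouse TLR genes were expressed at low level. Tlr11, whose product binds a parasite profilin in endosomes, rose, with counts of 113, 159 and 100 in BW723C86 libraries and 12, 7 and 10 in DMSO libraries (log2 fold change 3.85, SE 0.32, edgeR adjusted p = 6.6e-07). Low counts in the table pile up at multiples of 4, so its DMSO level may rest on very few sequenced fragments. Tlr5, the flagellin receptor gene, fell, with counts of 16, 19 and 24 with BW723C86 and 106, 53 and 162 with DMSO (log2 fold change -2.19, SE 0.38, adjusted p = 0.00047). Tlr12, at 25, 34 and 45 counts with BW723C86 and 12, 23 and 50 with DMSO, did not pass (adjusted p = 0.49).

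Of all tested genes, 21.3% rose and 20.7% fell. Of 9 genes for co-receptors and accessory proteins of the surface TLRs, 4 rose, 3 fell and 2 did not pass. Their median log2 fold change was -0.11. Without BW723C86 replicate 2, 4 rose and 5 fell. Lbp, encoding the plasma protein that delivers LPS to CD14, fell to 2.47 ± 0.133 CPM with BW723C86, against 8.04 ± 0.483 CPM with DMSO (log2 fold change -1.70). Itgam, the integrin chain CD11b, fell by 1.10 on the log2 scale to 976 ± 39.5 CPM, against 2088 ± 25.9 CPM with DMSO. Ly96, encoding MD-2, measured 3.42, 4.28 and 2.87 CPM with BW723C86 and 4.88, 4.79 and 4.43 CPM with DMSO, and its fold change of -0.41 on the log2 scale (SE 0.17, edgeR adjusted p = 0.064) missed the threshold, though it passed without BW723C86 replicate 2 (-0.60, adjusted p = 0.01). Its log2 ratio to Tlr4, per kb, was -2.43 ± 0.205 with BW723C86 and -2.80 ± 0.127 with DMSO (SD, n = 3 each, two-sided exact permutation p = 0.1, adjusted 0.125 over 5 ratios).

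In the other direction, Ly86, which encodes MD-1, the partner of the TLR4-like receptor CD180, rose to 42.1 ± 0.748 CPM with BW723C86, against 13.9 ± 1.23 CPM with DMSO (3.02-fold higher). Cd180 itself was at 40.5 ± 1.93 CPM with BW723C86 and 43.7 ± 0.578 CPM with DMSO and did not pass (log2 fold change -0.11, edgeR adjusted p = 0.14), though it did without BW723C86 replicate 2 (-0.17, adjusted p = 0.016). Cd36, a scavenger receptor that assists TLR2 with TLR6, rose by a log2 fold change of 1.04 to 213 ± 10.2 CPM, against 103 ± 0.727 CPM with DMSO.

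Genes that fold, carry and process TLRs included 8 that rose, 2 that fell and 7 that did not pass, of 17 tested (median log2 fold change 0.07). That is 47.1% higher and 11.8% lower, beside 21.3% and 20.7% of all tested genes. Unc93b1, encoding the chaperone of endosomal TLRs, measured 481, 422 and 464 CPM with BW723C86 and 465, 468 and 462 CPM with DMSO. Its groups overlapped, and it did not pass (log2 fold change -0.03, edgeR adjusted p = 0.7). Relative to the summed endosomal TLRs, per kb, its log2 ratio was 0.83 ± 0.187 with BW723C86 and 0.86 ± 0.042 with DMSO (SD, n = 3 each).

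The rises in this list were led by lysosomal proteases that can cleave TLR9 and its relatives in endosomes. Ctsb, encoding cathepsin B, rose by a log2 fold change of 1.74 (SE 0.04) and Lgmn, encoding the asparagine endopeptidase legumain, by 1.36 (SE 0.04), to 1013 ± 33.3 CPM with BW723C86, against 396 ± 2.94 CPM with DMSO. These enzymes are general lysosomal proteases, so the list is not specific to TLRs. Hsp90b1, encoding the endoplasmic reticulum chaperone gp96, fell by 0.19, and Tmed7, encoding a cargo adaptor that helps TLR4 leave the endoplasmic reticulum, fell by 0.34 on the log2 scale.

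Adaptors and proximal kinases moved both ways: 8 of 21 rose, 7 fell and 6 did not pass, with a median log2 fold change of 0.05. That is 38.1% higher and 33.3% lower, beside 21.3% and 20.7% of all tested genes. Myd88 rose to 142 ± 6.07 CPM with BW723C86, against 115 ± 3.12 CPM with DMSO (log2 fold change 0.30, SE 0.05, edgeR adjusted p = 0.0002). Ticam1, encoding TRIF, rose by 0.60 (SE 0.07) and Scimp, a transmembrane adaptor of TLRs, by 0.64 (SE 0.05). The fall was largest in Ikbke, encoding the kinase IKK-epsilon, at -0.70 (SE 0.07), and next in Traf3, an adaptor of interferon induction, at -0.55 (SE 0.07).

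Among inhibitors of TLR signalling, 3 of 13 tested rose, 3 fell and 7 did not pass (median log2 fold change 0.10). The list's 23.1% higher and 23.1% lower were near the 21.3% and 20.7% over all tested genes. Without BW723C86 replicate 2, 5 inhibitors rose and 5 fell. Irak3, encoding the inactive kinase IRAK-M that restrains MyD88 signalling in macrophages, fell to 21.8 ± 1.6 CPM with BW723C86, against 42.4 ± 0.488 CPM with DMSO (log2 fold change -0.96, SE 0.07, edgeR adjusted p = 1.2e-07). Il1rl1, which encodes the interleukin-33 receptor ST2, fell by 0.46 with an adjusted p of 0.032, a call that any of 5 libraries, left out singly, ended. Cd300a, an inhibitory receptor gene, rose by 0.49 and Rnf216, encoding a ubiquitin ligase that acts on TLRs, by 0.25 on the log2 scale.

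Among genes that TLR ligands induce in macrophages, falls outnumbered rises: 13 of 22 were lower, 1 was higher and 8 did not pass, with a median log2 fold change of -0.68, beside 20.7% of all tested genes lower. Without BW723C86 replicate 2, 13 were lower and 2 higher. The transcripts were scarce, the whole list of 24 summing to 373 to 410 CPM with BW723C86 and 447 to 452 CPM with DMSO. Il12a, encoding a subunit of interleukin-12, had no count in any BW723C86 library and counts of 45, 36 and 39 with DMSO. Against a floor of 3 counts per library it was at least 10.7-fold lower. That floor takes each count as a sequenced fragment, and low counts pile up at multiples of 4, so the least fold may be smaller. Nos2, the inducible nitric oxide synthase gene, fell, with counts of 5, 4 and 0 with BW723C86 and 141, 48 and 101 with DMSO. Ccl3, a chemokine gene, was the 1 that rose, to 58 ± 1.57 CPM with BW723C86, against 39.5 ± 0.661 CPM with DMSO (log2 fold change 0.55).

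Sensors of nucleic acid and peptidoglycan outside the TLR family gave 1 higher, 5 lower and 6 not past of 12 (median log2 fold change -0.21). That is 8.33% higher and 41.7% lower, beside 21.3% and 20.7% of all tested genes. Nod2, the receptor for muramyl dipeptide, fell to 5.67 ± 0.689 CPM with BW723C86, against 14.2 ± 0.58 CPM with DMSO (log2 fold change -1.32, SE 0.11), and Cgas, the cytosolic DNA sensor gene, fell by 0.47. Tmem173, encoding STING, through which cGAS signals, rose by 0.69 on the log2 scale (SE 0.05).

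**Figure D4:**
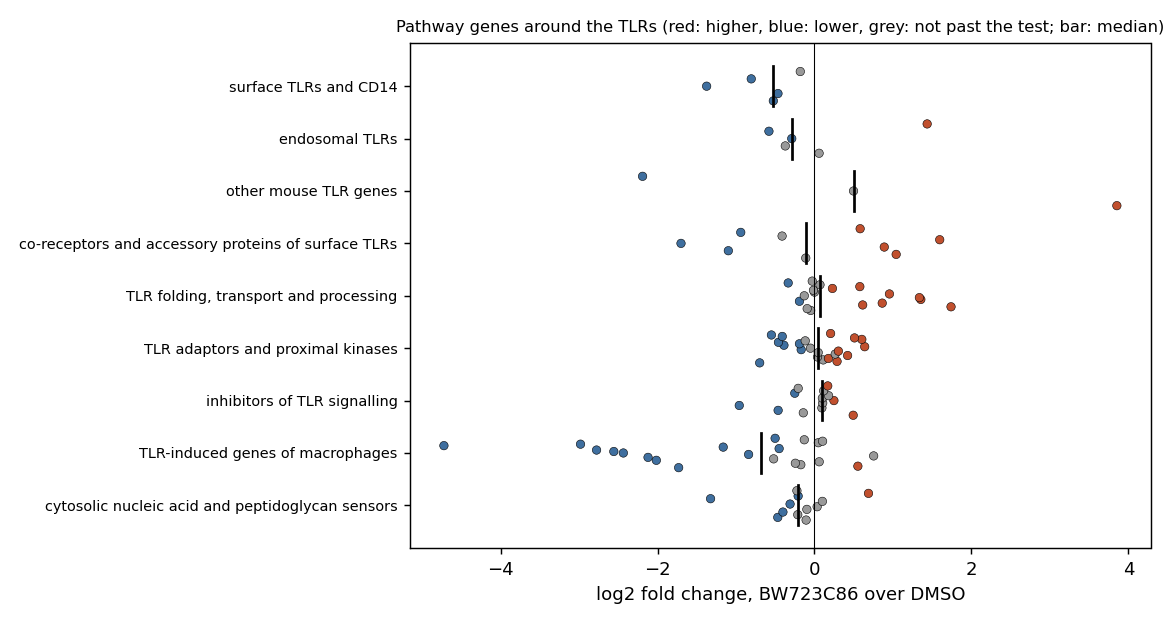
Log2 fold change, BW723C86 over DMSO, of every tested gene of the TLR lists except Il12a, which had no BW723C86 count; points are genes, red where higher, blue where lower and grey where the edgeR test was not passed, and the bar is the list's median. The surface TLRs with Cd14 (median -0.52) and the TLR-induced genes (median -0.68) lie mostly left of 0, while adaptors and kinases (median 0.05) spread to both sides.

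Markers listed for other blood cells moved with these receptors, several of which such cells also express. Whether the macrophages here also expressed these markers was not tested. All 9 tested neutrophil markers fell, beside 20.7% of all tested genes. The list of 12 summed to 709 to 814 CPM with BW723C86 and 2603 to 2679 CPM with DMSO. Most of that sum was Mmp8, a collagenase gene, at 716 ± 56.7 CPM with BW723C86 and 2417 ± 46.1 CPM with DMSO, while the defining marker Ly6g was at 0.0324 ± 0.0562 CPM with BW723C86 and 2.22 ± 0.401 CPM with DMSO (SD, n = 3 each), and Camp, Mpo and Retnlg, each near 0 CPM in both groups, were not tested. Of 10 monocyte markers 9 fell and none rose, and they summed to 1488 to 1612 CPM with BW723C86 and 6065 to 6143 CPM with DMSO, mostly Chil3 and Fn1. Their part in the falls of Tlr2, Tlr4, Tlr8 and Cd14 was not tested.

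Beside the rise of Tlr9, a receptor well known from plasmacytoid dendritic cells and B cells, 5 of 8 tested dendritic cell markers rose. The other 3 did not pass. Without BW723C86 replicate 1, 5 rose and 1 fell. Of all tested genes, 21.3% rose and 20.7% fell. The dendritic cell list of 10 summed to 4639 to 4986 CPM with BW723C86 and 1060 to 1069 CPM with DMSO, mostly Itgax and H2-Aa. Of the markers tied to plasmacytoid dendritic cells, Bst2, which other cells also express, was at 112 ± 13.3 CPM with BW723C86 and 123 ± 4.27 CPM with DMSO and did not pass (log2 fold change -0.14, edgeR adjusted p = 0.16). Siglech, too scarce to test, had counts of 9, 9 and 14 with BW723C86 and none with DMSO. Ccr7, a marker of migratory dendritic cells, did not pass either (log2 fold change -0.07, adjusted p = 0.42). Lymphocyte markers fell for 5 of 6 tested (3 of 6 without BW723C86 replicate 2 or without any single DMSO library) and summed to 2.09 to 2.47 CPM with BW723C86 and 6.9 to 9.4 CPM with DMSO, with Cd4 the most abundant. Of 6 tested mast cell and basophil markers 4 fell, and the list summed to 68.5 to 72.1 CPM with BW723C86 and 139 to 147 CPM with DMSO. The part of these cells in the rise of Tlr9 was not tested.

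The genes whose profile was most like a member's were found among 10024 tested genes of at least 5 CPM, by Euclidean distance between centred log2 CPM over the 6 samples. Only members at least 2-fold changed were searched. The difference between the 2 groups largely sets this distance, so near genes have like fold changes by construction. Nearest to Tlr2 were Dusp6, a phosphatase gene for ERK (distance 0.0895), Itga1, an integrin chain gene (0.11), and Pilrb1 (0.128), with log2 fold changes of -1.41, -1.33 and -1.42. Nearest to Tlr9 were H2-T24, a non-classical MHC class I gene (0.127), Nrp1, encoding the co-receptor neuropilin-1 (0.14), and Qpct, encoding glutaminyl cyclase (0.148), with log2 fold changes of 1.44, 1.52 and 1.43.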

How the data were processed

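Poly(A)-selected, strand-marked RNA libraries were sequenced as paired ends, per the labels' protocols. The tools named, per the submitters' processing notes, are edgeR, StringTie, HISAT2 and fastp, with GRCm39 and GRCh38 as builds. The sources used here give neither versions nor whether counting used strand. The authors deposited estimated counts for each Ensembl gene, all whole, so rounding changed 0 values. Low values pile up at multiples of 4 (4 occurs 4613 times, 3 occurs 2904 times and 5 occurs 2552 times), so the table divided by 4 was an alternative.

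Symbols for 27005 identifiers and exon lengths came from GENCODE release M21, which describes build GRCm38. It was used for names, lengths and overlaps, never for coordinates. Level per kb divides CPM by the union of a gene's exons. A floor of 3 counts equals 0.0395 to 0.051 CPM of the unscaled totals and covers counting error only. It takes each count as a sequenced fragment.

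The groups were compared with edgeR 4.0.16 in R 4.3.3 (quasi-likelihood F test, robust fit, TMM, default filter by group). P-values are two-sided and Benjamini-Hochberg adjusted across the 15567 genes tested, called below 0.05. The SE is the log2 fold change divided by the square root of F. The code was tested on simulated data. Alternatives were other scalings, DESeq2 1.42.0, limma 3.58.1 (voom), other filters, blocking on replicate number, leaving out each library in turn, and a test against a fold of 1.2. The members and gene lists were chosen with earlier results of these data known, and lists are described by counts and medians without a set test. From each list the text names the 2 largest rises and 2 largest falls past the threshold, plus Ly96, Unc93b1, Myd88, Ticam1, Irak3 and Cd180, with markers of cell types given mostly as sums. Gene names beyond that rule (Tlr12, Lyz2, Aif1, Cd163, Map2, Nefl, Siglech, Bst2, Ccr7, Mmp8, Camp, Mpo, Retnlg, Chil3, Fn1, Cd4) were chosen after their values were seen.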

Additional observations from a re-analysis of the deposited data

How the results depend on the processing

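Over all 15 alternatives, Tlr2, Tlr4, Tlr8, Cd14 and Tlr9 kept their direction and stayed past the threshold, with log2 fold changes of -1.42 to -1.36, -0.89 to -0.77, -0.63 to -0.55, -0.56 to -0.50 and 1.38 to 1.47. Of the 10 members, 1 was higher under every alternative and 4 to 7 were lower. Tested against a fold of 1.2, an alternative chosen after seeing the data, 4 members were lower, Tlr1 and Tlr7 were lost, and 1609 genes were higher and 1599 lower, against 3319 and 3215. Leaving out 1 library gave 2715 to 3440 genes higher, 2623 to 3713 lower, 1 member higher and 5 to 7 members lower. Leaving out 1 library gave Tlr13 a log2 fold change of -0.0204 to 0.0911 and Unc93b1 one of -0.0728 to 0.00757; both signs turned without BW723C86 replicate 2, and the cause was not tested. Leaving out 1 library, the log2 difference in the summed TLR level was -0.76 to -0.69 and the endosomal share was 19.6 to 20.3 percentage points higher (19.3 with the longest transcript's length).

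With the replicate number as a block, 3123 genes were higher and 3056 lower, with 1 member higher and 6 lower, and no member's call changed. The deviations of same-numbered libraries from their group means correlated at 0.031, -0.0247 and -0.00481. Differently numbered libraries gave -0.0312 to 0.0381, so shared numbers showed no shared variation. Such correlations cannot tell whether the cultures were set up in pairs. Depth limited Tlr11, Tlr5 and Il12a, whose lower group rests on few or no counts.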
